A study of Homo sapiens with 48 samples.

Results

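The MAPK phosphatase genes DUSP1, DUSP2, DUSP4, DUSP5, DUSP6, DUSP8, DUSP10 and DUSP16 were examined in 16 lists of ChIP-seq peaks of L3.6pl, a human pancreatic ductal adenocarcinoma (PDAC) cell line. They are 8 of the 20033 protein-coding genes of GENCODE 44. The genes were picked by name as typical MAPK phosphatases, and each was given a window of its gene body plus 50 kb on either side. Every peak overlapping a window was taken. The window also takes in sites that lie closer to other genes, and a site in it is not by that alone a site of the phosphatase.

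The lists came from 48 samples in 16 groups of 3 replicates. Cells had received vehicle, TNFα for 30 min or 6 h, or TWEAK for 30 min or 6 h. TNFα activates the canonical NF-κB pathway, which acts through RELA, and TWEAK is a ligand of the noncanonical pathway, which acts through RELB. RELA, RELB and the active chromatin mark H3K27ac were profiled under all 5 conditions and the AP-1 subunit FOSL1 in vehicle alone, so that no list shows FOSL1 after a cytokine. Vehicle cells serve as the control for both times, and the labels give no duration for them. All samples are of 1 cell line, which limits what they say of other tumours. Each group had 1 list made by the authors from its merged replicates, so no value below has a replicate error and none of the differences was tested. The peak names of the RELA list after 30 min of TNFα carry a replicate number beside the word merged, so whether it holds 3 replicates could not be told. The depth of the libraries is unknown.

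In cells, MAP kinases are switched on by phosphorylation of a threonine and a tyrosine, and the dual specificity phosphatases of this family switch them off by removing both groups. DUSP1, DUSP2, DUSP4 and DUSP5 are inducible nuclear enzymes. DUSP6 is cytoplasmic and acts on ERK, while DUSP8, DUSP10 and DUSP16 act mainly on the stress kinases JNK and p38. TNF receptors activate NF-κB and these kinases side by side, and several phosphatase genes are known as feedback targets of the kinase cascades.

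After 30 min of TNFα, RELA had a peak in the windows of 7 of the 8 genes, all but DUSP10. Among all protein-coding genes, 48.1% had such a peak. There were 15 peaks in all, and none lay at a site of the vehicle list. The vehicle RELA list held no peak in any of the 8 windows, and 5.05% of all genes had one. At 6 h of TNFα, 8 RELA peaks lay in the windows of DUSP1, DUSP5, DUSP6 and DUSP16, which are 4 of the 8 genes, beside 26.8% of all genes. TWEAK gave no RELA peak in the windows, either after 30 min (background 7.58%) or after 6 h (background 5.12%).

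RELB was nearly absent from these windows. Its lists of vehicle, 30 min of TNFα, 6 h of TNFα and 30 min of TWEAK held 0 peaks there, with backgrounds of 3.06%, 1.59%, 3.87% and 1.41% of all genes. At 6 h of TWEAK there was 1 RELB peak, upstream of DUSP1, and 13.6% of all genes had at least 1. With 8 genes, 0 or 1 is close to what these backgrounds give. The windows measured between 102.272 kb (DUSP2) and 189.582 kb (DUSP16), with a median of 116 kb against 127 kb over all genes.

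**Figure D1:**
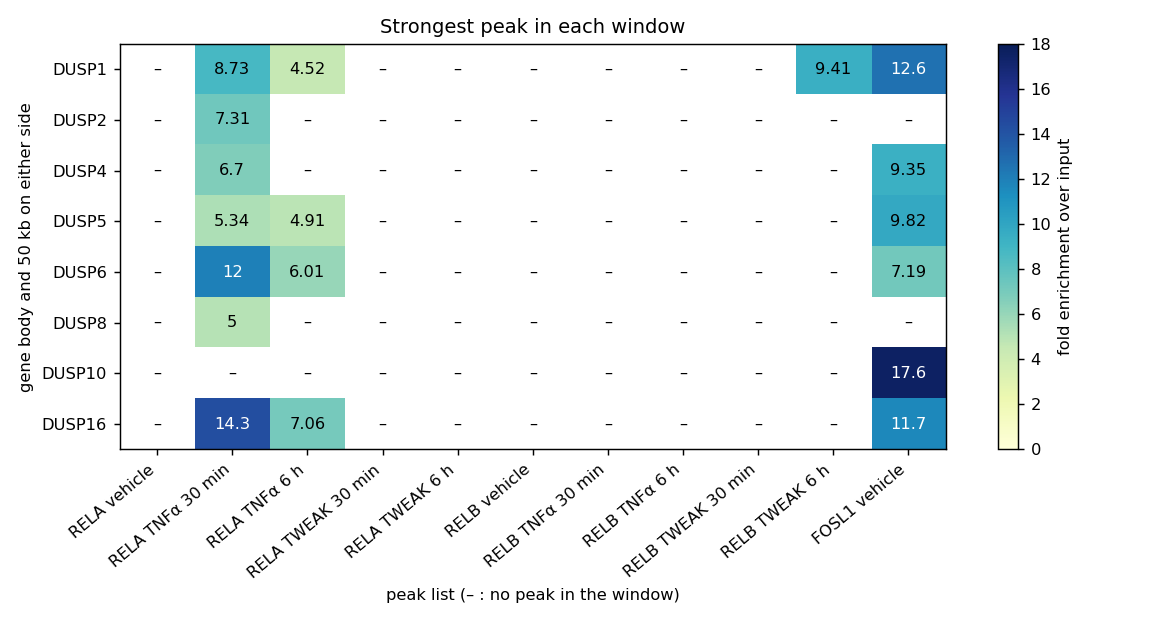
Strongest peak in the window of each gene (rows) in each of the 11 lists of RELA, RELB and FOSL1 peaks (columns), as the deposited fold enrichment over input, which is printed in the cell and shown by colour. Empty cells with a dash had no peak. The filled RELA cells are all TNFα lists, and the only RELB cell is DUSP1 at 6 h of TWEAK with 9.41.

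Overlapping peaks of the RELA and RELB lists merged to 18 sites around the 8 genes. Of these, 15 were in the RELA list of 30 min of TNFα and 3 in that of 6 h of TNFα but not of 30 min. For 14 of the 18 the nearest protein-coding start site was that of the phosphatase itself, and 3 lay within 1000 bp of one, those of DUSP5, DUSP6 and DUSP8. Where a position is given it is that of the peak summit in hg38.

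DUSP1 (ENSG00000120129, chr5:172768096-172771195, minus strand) encodes a nuclear phosphatase made early after many stimuli that prefers p38 and JNK. Its window held 4 sites. The strongest RELA site at 30 min of TNFα lay at 172765492, which is 5703 bp downstream of the gene's start, in an intron of the long non-coding RNA gene ENSG00000253736. Its fold enrichment was 8.73 at 30 min of TNFα, above 78.4% of the peaks of that list. It was 4.52 at 6 h of TNFα, and the site was called in no other RELA or RELB list. A FOSL1 peak of fold 8.23 covered it in vehicle, and H3K27ac was called beside it in all 5 lists with folds of 2.66 to 3.27.

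The DUSP1 site at 11589 bp upstream, at 172782784, was the only one of the 18 shared by both NF-κB subunits. RELA was called there at 6 h of TNFα with a fold of 3.84 and not at 30 min, and RELB at 6 h of TWEAK with a fold of 9.41. FOSL1 reached 9.70 in vehicle, with its summit 28 bp away. This site was described after its values had been seen. H3K27ac was present in all 5 lists, with the lowest fold, 1.78, at 30 min of TWEAK. The sequences around both summits are shown because one holds an NF-κB consensus match and the other, which RELB and FOSL1 share, holds an AP-1 match. They are the plus strand of hg38 at chr5:172765432-172765551 and chr5:172782724-172782843, and capitals mark the matches.
DUSP1 downstream site: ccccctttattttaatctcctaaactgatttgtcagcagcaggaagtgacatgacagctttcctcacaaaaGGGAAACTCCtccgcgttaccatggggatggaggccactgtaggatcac
DUSP1 upstream site: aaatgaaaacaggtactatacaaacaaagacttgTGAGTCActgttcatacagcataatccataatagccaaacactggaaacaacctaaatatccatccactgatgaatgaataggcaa

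The other DUSP1 sites were called for RELA at 30 min of TNFα alone, with folds below that of the downstream site. One lay 39234 bp downstream of the start (fold 5.37). H3K27ac was called beside it only with TNFα for 30 min (2.14) and TWEAK for 6 h (2.53). The other lay 36155 bp upstream, closer to ERGIC1, with a RELA fold of 4.75, a FOSL1 fold of 6.80 and H3K27ac between 3.65 and 4.17 in all 5 lists.

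DUSP2 (ENSG00000158050, chr2:96143169-96145440, minus strand), known best from haematopoietic cells, had 1 site. At 30 min of TNFα its RELA fold was 7.31, above 68.1% of the list, and no other RELA or RELB list called it. The summit at 96116643 was 28797 bp downstream of the DUSP2 start but only 72 bp from the start of ADRA2B, an adrenergic receptor gene. H3K27ac was called there in all 5 lists, with 5.79 in vehicle and 7.87 at 30 min of TNFα. An NF-κB consensus match lay at 96116695 to 96116704. FOSL1 had no peak in this window.

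DUSP4 (ENSG00000120875, chr8:29333064-29350684, minus strand) encodes a nuclear phosphatase of ERK and JNK. Its site lay 39807 bp upstream, at 29390491, with a RELA fold of 6.70 at 30 min of TNFα (above 61.6% of the list) and no call at 6 h. FOSL1 covered it with a fold of 4.78. It was the only one of the 15 sites of 30 min of TNFα with no H3K27ac within 500 bp in any of the 5 lists. It held 2 NF-κB consensus matches in the 200 bp around the summit.

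DUSP5 (ENSG00000138166, chr10:110497907-110511533, plus strand) encodes a nuclear phosphatase specific for ERK. Its strongest RELA site of 30 min of TNFα lay 1694 bp upstream of the start, at 110496213, in an exon of the divergent non-coding gene DUSP5-DT. The fold was 5.34 at 30 min and 4.32 at 6 h of TNFα. No FOSL1 peak overlapped it, and H3K27ac ranged from 1.61 to 2.20. A weaker site sat at the promoter, 29 bp upstream of the start at 110497878. Its RELA fold was 3.95 at 30 min of TNFα alone, above 7.06% of the list, and it lay under a FOSL1 peak of 7.98. A further site 31277 bp downstream was called at 6 h of TNFα only, with a fold of 4.91, and was described after its values had been seen. H3K27ac there had folds of 2.78 in vehicle, 2.62 with TNFα for 6 h and 3.11 with TWEAK for 6 h, and was called in neither list of 30 min.

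The upstream and downstream DUSP5 sequences are shown for their NF-κB matches, at chr10:110496153-110496272 and chr10:110529124-110529243 on the plus strand. In the upstream one the match reads on the minus strand. In the downstream one, 2 matches on opposite strands overlap in the first run of capitals, and the second run is an AP-1 match.
DUSP5 upstream site: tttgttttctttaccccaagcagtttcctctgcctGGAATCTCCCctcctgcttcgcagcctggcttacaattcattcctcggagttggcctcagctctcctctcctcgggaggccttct
DUSP5 downstream site: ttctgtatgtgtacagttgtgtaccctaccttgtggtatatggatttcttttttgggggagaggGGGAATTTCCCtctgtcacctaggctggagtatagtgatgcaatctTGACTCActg

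DUSP6 (ENSG00000139318, chr12:89347235-89352501, minus strand), the cytoplasmic ERK phosphatase that is a widely used readout of ERK activity, had 4 sites, all at or upstream of its start and all under a FOSL1 peak. The strongest, 21869 bp upstream at 89374370, had a RELA fold of 12 at 30 min of TNFα, above 90.4% of the list. It was 6.01 at 6 h of TNFα. FOSL1 was 4.19 there, and H3K27ac was 1.67 in vehicle and 2.13 at 30 min of TNFα. The promoter site at 89352650, 149 bp upstream of the start, had RELA folds of 7.21 at 30 min and 4.95 at 6 h of TNFα. Its FOSL1 peak (7.19) had its summit 17 bp away and was the strongest FOSL1 peak of the whole window. The remaining DUSP6 sites, 1591 bp and 32036 bp upstream, had RELA folds of 4.42 and 4.97 at 30 min of TNFα and none at 6 h.

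Both RELA sites of DUSP6 that were called at 30 min and 6 h lacked the NF-κB consensus within 200 bp around the summit. Their sequences are shown for that reason, at chr12:89374310-89374429 and chr12:89352590-89352709 on the plus strand, with an AP-1 match of the distal site in capitals. No match says only that these letters are not in the window.
DUSP6 distal site: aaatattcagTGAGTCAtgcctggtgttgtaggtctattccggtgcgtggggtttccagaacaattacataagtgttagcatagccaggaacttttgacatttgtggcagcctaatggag
DUSP6 promoter site: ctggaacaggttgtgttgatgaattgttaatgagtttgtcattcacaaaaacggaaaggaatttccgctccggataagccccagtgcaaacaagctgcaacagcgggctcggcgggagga

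DUSP8 (ENSG00000184545, chr11:1554051-1572271, minus strand), a phosphatase of JNK and p38, had 1 RELA site, at its own promoter. The summit at 1572345 lay 74 bp upstream of the start and the fold was 5.00 at 30 min of TNFα, above 29.3% of the list. It was the only site of the 18 in a tandem repeat by the measure used, with a self-match of 0.429 where 0.4 was the limit. H3K27ac was called within 500 bp of the DUSP8 start at 30 min of TNFα (3.84) and at 30 min of TWEAK (3.47), and not in vehicle or at 6 h of either cytokine. The sequence at chr11:1572285-1572404 on the plus strand is shown because it holds 2 matches to the cyclic AMP response element (CRE) letters TGACGTCA, in capitals. Of all RELA sites of 30 min of TNFα, 0.577% held such a match.
DUSP8 promoter site: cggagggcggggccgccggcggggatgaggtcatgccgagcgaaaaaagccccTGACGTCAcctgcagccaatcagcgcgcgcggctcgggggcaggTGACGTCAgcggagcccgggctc

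DUSP10 (ENSG00000143507, chr1:221701424-221742089, minus strand), another JNK and p38 phosphatase, had no RELA or RELB peak in its window in any of the 10 lists. The nearest RELA peak of 30 min of TNFα was 261010 bp from its gene body and had a fold of 14.1. The window was not bare of other peaks. FOSL1 had 4, the strongest of them 17.6, which was the highest FOSL1 fold in the 8 windows, and H3K27ac within 500 bp of the DUSP10 start had a fold of 4.88 in vehicle.

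DUSP16 (ENSG00000111266, chr12:12473282-12562863, minus strand), a JNK phosphatase, had the largest gene body and 4 sites. The site at 12449722, past the 3' end of the gene and in an intron of BORCS5, had the highest RELA fold of all, 14.3 at 30 min of TNFα, above 94.9% of the list. It was 6.39 at 6 h of TNFα. Here no FOSL1 peak overlapped, and H3K27ac was 3.42 in vehicle and 4.31 at 30 min of TNFα. Its distance to the DUSP16 start was 113141 bp and to the start of BORCS5, its nearest, 92304 bp. A neighbouring BORCS5 site, 123085 bp from the DUSP16 start, was called at 6 h of TNFα (7.06) and not at 30 min, under a FOSL1 peak of 11.7. Another lay 93256 bp from the start with a RELA fold of 7.48 at 30 min alone.

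The fourth DUSP16 site was in an intron of DUSP16 itself, 23291 bp downstream of the start, with a fold of 6.05 at 30 min of TNFα alone. It had no H3K27ac in vehicle or after TWEAK, and TNFα gave folds of 2.40 (30 min) and 2.46 (6 h). It was described after its values had been seen. Its sequence, at chr12:12539512-12539631 on the plus strand, is shown because an NF-κB consensus match, here on the minus strand and in capitals, lies beside the summit.
DUSP16 intron site: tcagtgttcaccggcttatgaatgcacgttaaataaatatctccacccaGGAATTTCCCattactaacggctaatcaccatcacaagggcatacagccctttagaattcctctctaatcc

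**Figure D2:**
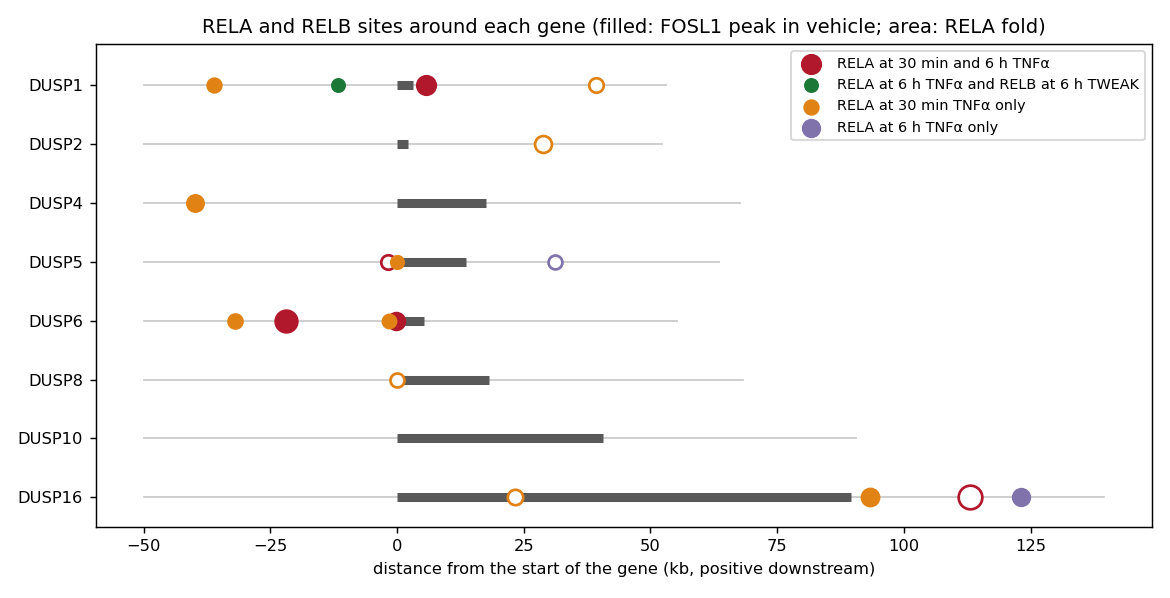
Positions of the 18 merged RELA and RELB sites relative to the start of each gene (x axis, kb, positive downstream; thick bar, gene body; thin line, window). Colour gives the lists that called a site, filled circles overlap a vehicle FOSL1 peak, and the circle area follows the larger RELA fold. DUSP10 has no circle, and 3 circles sit within 1000 bp of a start, at DUSP5, DUSP6 and DUSP8.

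Of the 15 RELA sites of 30 min of TNFα, all 15 were absent from the vehicle list, compared with 80.7% of all 11266 RELA sites of that list. Outside tandem repeats that background was 95.7%, and 14 of the 15 were outside them. At 6 h of TNFα 5 of the 15 were called again (1 of DUSP1, 1 of DUSP5, 2 of DUSP6 and 1 of DUSP16), beside 45.2% of all sites and 35.3% of those outside tandem repeats. With only RELA peaks of a fold of at least 5 it was 2 of 11, for which no share of all sites under the same filter is given. None of the 15 was shared with RELB at 6 h of TWEAK, where 27.3% of all sites and 15.8% of those outside tandem repeats were.

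The sites called at both times had the higher median fold at 30 min, 8.73 against 5.19 for the 10 that were not. The folds of the groups overlapped, since a DUSP5 site of 5.34 was called again and a DUSP16 site of 7.48 was not. The medians had the same order over all sites outside tandem repeats (9.37 against 5.50). Each of the 5 had a lower fold at 6 h than at 30 min. The ratio of 30 min to 6 h ran from 1.24 (DUSP5) to 2.24 (DUSP16), with a median of 1.93. Over all 5093 sites in both lists it was 1.07, and over the 2934 of them outside tandem repeats 1.26. Folds of 2 lists depend on the depth and background of each, and no replicate values were available to set an error on these ratios. Over the 15 sites the fold ran from 3.95 to 14.3 and had a median of 6.05, compared with 5.93 in the whole list.

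**Figure D3:**
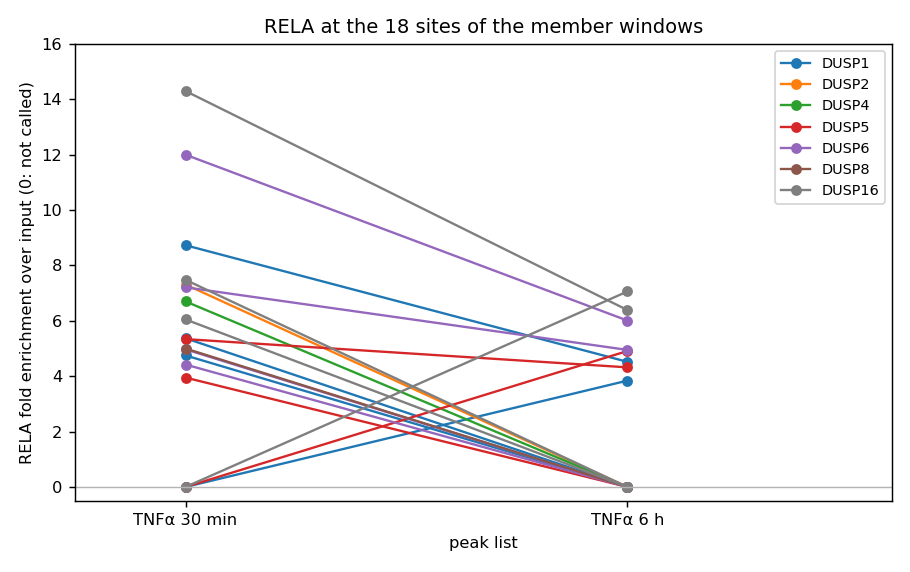
Deposited RELA fold enrichment over input (y axis) at the 18 sites in the lists of 30 min and 6 h of TNFα (x axis), 1 line per site and 1 colour per gene, with sites not called in a list drawn at 0. The 5 lines that stay above 0 all fall, 10 lines drop to 0 and 3 start from 0.

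FOSL1 overlapped 9 of the 15 RELA sites, beside 58.0% of all RELA sites of that list. Outside tandem repeats it overlapped 9 of 14, beside 48.9% of all sites there. With only peaks of a fold of at least 5 in the RELA and FOSL1 lists, it was 3 of 11. No share of all sites under this filter is given, and 58.0% is not its background. The median fold of the FOSL1 list was 4.99, so the filter cuts that list near its middle. Of the 5 that were called at both times 3 had FOSL1, and of the 10 that were not 6 had it. Over the windows FOSL1 had a peak for 6 of the 8 genes, where 90.5% of all genes had one. DUSP1 had 12 FOSL1 peaks and DUSP6 had 11, and 7.61% of all genes had 11 or more. DUSP5 had 7, DUSP4 and DUSP16 had 6 each, and DUSP2 and DUSP8 had 0. The start sites under a FOSL1 peak were those of DUSP1 (fold 3.95), DUSP5 (7.98) and DUSP10 (4.37). The median over the 8 genes was 6 peaks, and over all genes 4.

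The NF-κB consensus was found within 200 bp around the summit of 5 of the 15 RELA sites (1 each for DUSP1, DUSP2, DUSP4, DUSP5 and DUSP16), beside 34.8% of all sites. The AP-1 letters TGANTCA were found at 1 of the 15, the distal DUSP6 site, beside 14.4%. The CRE letters were found at the DUSP8 promoter only. Both strands were searched, and none of the 15 held both an NF-κB and an AP-1 match. For the NF-κB letters the count is close to that background, and for AP-1 and CRE it rests on 1 site each. A match is no proof of contact with the factor.

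At the RELA sites themselves the chromatin was mostly acetylated already. In vehicle, 11 of the 15 had an H3K27ac peak within 500 bp, beside 60.1% of all RELA sites, and 14 had one at 30 min of TNFα. The 3 gained sites were the DUSP1 site 39234 bp downstream, the DUSP8 promoter and the DUSP16 intron site, beside 13.1% of all sites. None was lost, beside 2.03%. Outside tandem repeats, which leaves out the DUSP8 promoter, 2 of 14 sites gained H3K27ac, beside 12.1% of all sites there. With a −log10 q of at least 3 the gained sites also numbered 2. At 30 min of TWEAK, where RELA was not called, 12 of the 15 had H3K27ac. For the count of 14, the background over all RELA sites follows from the 60.1% in vehicle, the 13.1% gained and the 2.03% lost. For the count of 12 at 30 min of TWEAK no share of all sites is given.

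At the start sites the count of marked genes depended on the distance used. In vehicle the H3K27ac peak lay over a start site of DUSP1, DUSP2, DUSP6 and DUSP16, which are 4 of the 8 genes, beside 58.9% of all genes. Within 500 bp of a start site 7 of the 8 had one, all but DUSP8, beside 64.4% of all genes. This wider distance was chosen after the data had been seen. Over a start site itself, the lists of 30 min of TNFα and 30 min of TWEAK also had 4 genes, with DUSP8 in place of DUSP1. The DUSP1 start thus lay under no H3K27ac peak at 30 min of either cytokine, though a peak lay within 500 bp of it. At 30 min of TNFα the fold within 500 bp was above vehicle for DUSP1 (2.89 and 2.73), DUSP4 (2.12 and 1.86), DUSP5 (2.20 and 2.04), DUSP6 (2.42 and 1.99) and DUSP16 (3.67 and 3.61). It was below vehicle for DUSP2 (3.17 and 4.88) and DUSP10 (4.50 and 4.88). At 30 min of TWEAK the values of DUSP1 (2.79), DUSP4 (1.98), DUSP5 (2.20) and DUSP6 (2.29) were also above vehicle, so these higher values were not found after TNFα alone. Each fold is an average over a whole peak, and the bounds of the peaks differ between lists. The share of all genes with a higher fold than in vehicle is not given, so these counts have no background.

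The length under H3K27ac peaks differed by gene. In the DUSP1 window it was 9.27 kb in vehicle. TNFα for 30 min gave 14.3 kb and for 6 h 11.1 kb, and TWEAK for the same times 12.8 kb and 10.1 kb, so that all 4 treated lists exceeded vehicle. DUSP10 also exceeded vehicle in all 4, from 2.05 kb to at most 3.39 kb at 6 h of TNFα. DUSP16 went from 8.47 kb to 10.9 kb at 30 min of TNFα and to 6.95 kb at 6 h of TWEAK. DUSP8 had 0.519 kb in vehicle, 1.44 kb at 30 min of TNFα, 1.80 kb at 30 min of TWEAK and no peak at 6 h of either. DUSP5 lay below its vehicle length of 8.91 kb in all 4 treated lists, at 6.70 to 8.40 kb. DUSP2, DUSP4 and DUSP6 moved between 0.608 and 1.19 times their vehicle lengths.

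More length than in vehicle was found for 4 of the 8 genes at 30 min of TNFα (DUSP1, DUSP8, DUSP10 and DUSP16), beside 18.5% of all genes. It was found for 6 at 6 h of TNFα (background 47.8%), 5 after TWEAK for 30 min (20.5%) and 2 after TWEAK for 6 h (12.9%). The median ratio to vehicle over the 8 genes was 1.08, 1.13, 1.08 and 0.839 for these lists, compared with 0.847, 0.994, 0.876 and 0.874 over all genes with H3K27ac in vehicle. These 4 comparisons share the vehicle list, and the lists themselves differed in length (45.1 Mb at 30 min of TNFα against 55.5 Mb in vehicle). The part of depth in these lengths was not tested.

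**Figure D4:**
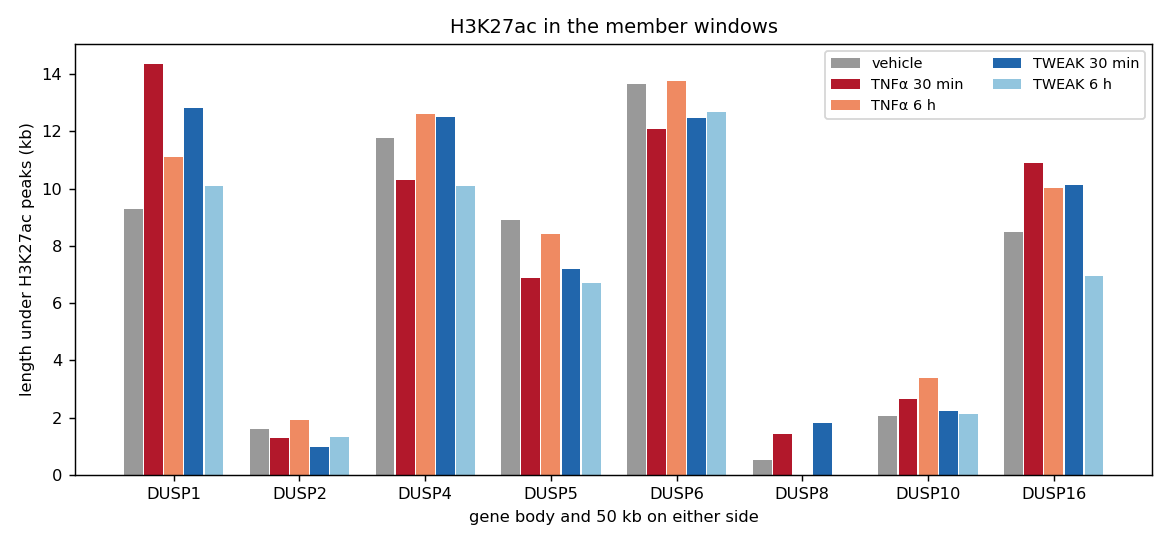
Length under H3K27ac peaks (y axis, kb) in the window of each gene (x axis) in vehicle and the 4 treated lists (bar colours), 1 list per bar and no error bars. DUSP1 is highest at 30 min of TNFα (14.3 kb against 9.27 kb in vehicle), and DUSP8 has no bar at 6 h of either cytokine.

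The window of 50 kb left out a RELA peak of 30 min of TNFα 50871 bp from the DUSP2 gene body (fold 8.46) and another 54729 bp from that of DUSP1 (fold 9.10). The farthest ones kept lay 26355 bp (7.31) and 36083 bp (5.37) away. For the other 6 genes the next peak outside was at least 83059 bp away.

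The epithelial label of the cells was checked on H3K27ac in vehicle. The planned measure was a peak over a start site, which 58.9% of all genes had. By it 2 of 5 epithelial markers (KRT8 and EPCAM) had a peak. So did 1 of 4 fibroblast markers (COL1A1), 0 of 2 endothelial markers and 0 of 4 immune markers. Within 500 bp of a start site all 5 epithelial markers (KRT8, KRT18, KRT19, EPCAM and CDH1) had a peak, beside 64.4% of all genes. It was 1 of 4 fibroblast markers (COL1A1), 0 of 2 endothelial markers and 1 of 4 immune markers (CD68). The wider distance was chosen after the data had been seen, and the planned measure did not set the epithelial markers above all genes.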

How the data were processed

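ChIP was carried out with antibodies to RELA, RELB, FOSL1 or H3K27ac. Beads carried protein G for RELA and protein A otherwise. Per the labels and the methods, the authors aligned reads to hg38 with Bowtie2 2.5.0 and called narrow peaks, or broad peaks for H3K27ac, with MACS2 (version not given in the sources used here) without a shifting model, against input, at a cutoff of 0.05. The authors' processing notes also name SAMtools 1.18 and deepTools 3.3.2. The deposited fold enrichment is the ratio of ChIP over input, at the summit in narrow lists and averaged over the peak in broad ones. The deposited −log10 q of each peak served as an alternative filter. The deposited score and −log10 p were not used.

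Overlaps (1 bp or more) were computed with Python 3.11.15, numpy 2.4.6, pandas 2.3.3 and pysam 0.24.0, and figures with matplotlib 3.10.9. The functions were tested on simulated data. Genes and start sites came from GENCODE 44, and sequences from hg38. The NF-κB consensus was a decamer with ambiguous bases, searched with AP-1 and CRE in 200 bp around a summit. Tandem repeats were taken as a self-match of 0.4 or more of the 1000 bp around a summit at shifts of up to 400 bp. Sites given by rule were the strongest RELA site of 30 min of TNFα per gene, sites within 1000 bp of a start, and RELA sites of that list shared with RELB (none was found). The other sites were described after their values had been seen. The members and lists were chosen with earlier results of these data known. Alternatives were windows of 10 and 100 kb, stricter peaks, other overlaps and distances, and sites nearest to the gene. DiffBind, motif discovery, ATAC-seq and RNA-seq were not analysed here.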

Additional observations from a re-analysis of the deposited data

How the results depend on the processing

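With windows of 10 kb, the RELA sites of 30 min of TNFα fell from 15 to 8, of which 8 were absent from vehicle, 3 were also called at 6 h and 5 overlapped FOSL1, and the RELB site was lost (0 sites). With windows of 100 kb there were 23 RELA sites, 23 absent from vehicle, 8 also called at 6 h and 14 under FOSL1. With a fold of at least 5 in the RELA, RELB and FOSL1 lists, 11 RELA sites were left, of which 2 were also called at 6 h and 3 overlapped FOSL1. Of 54 alternatives, 42 kept their value within 1.5 times and none reversed. All values but the covered length are counts, which have no direction to reverse. Several could not move, since 0 sites shared with RELB stay 0 under any stricter setting. A −log10 q of at least 3 removed none of the 15 RELA sites and not the RELB site. Counting H3K27ac within 500 bp of a start site rather than over it, an alternative chosen after seeing the data, gave 7 genes in place of 4. No paired analysis was possible because each group has 1 list and no separate values per replicate, and for the same reason no replicate could be left out. Without depth, a site missing from a list cannot be told apart from a site below detection.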

Other observations

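Other genes of the same pathways were read with the same windows, from lists chosen with earlier results known. Of the other typical MAPK phosphatases, 1 of 2 had a RELA peak at 30 min of TNFα, DUSP7 with a fold of 8.72 at 675 bp from its start. Of 10 atypical dual specificity phosphatases 4 had one, led by DUSP14 (10.2, nearest to TADA2A) and DUSP3 (5.97, 662 bp from its start). Among the MAP kinases it was 6 of 11, with MAPK6 at 16.4, 105 bp from its start, and MAPK11 and MAPK12 sharing 1 peak of 17.8 that lies nearest to PLXNB2. Of the MAP kinase kinases 4 of 7 had a peak. MAP2K3, which activates p38, had 13.4 at 82 bp from its start, and MAP2K2, which activates ERK, had 15.3 at 7186 bp. Of the Sprouty and Spred genes, feedback inhibitors upstream of ERK, 4 of 7 had a RELA peak, with SPRY1 at 14.5 and SPRY4 at 9.60. All of these counts stand beside the 48.1% of all protein-coding genes with a RELA peak in that list. RELB at 6 h of TWEAK had a peak for 0 of 2, 2 of 10 (DUSP14 8.32, DUSP22 4.41), 2 of 11 (MAPK11 and MAPK12, 8.36 each), 2 of 7 (MAP2K2 13.6, MAP2K3 4.91) and 0 of 7 genes of these lists, beside 13.6% of all genes. In vehicle the RELA counts of the same lists were 0 of 2, 1 of 10, 2 of 11, 1 of 7 and 0 of 7, beside 5.05% of all genes. The 2 of 11 were MAPK11 and MAPK12 both for vehicle RELA and for RELB at 6 h of TWEAK. Their windows overlap and their RELB folds are equal, so 1 peak may be counted for both genes.

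The genes whose pattern was most like that of DUSP1, by the distance between log2(1 + largest fold) over the 16 lists, were LPIN1 (distance 0.377) and RCSD1 (0.437), where the median over all genes was 5.34. Picked as the nearest of all genes, they lie below that median by construction. DUSP1 had peaks in 3 of the 10 RELA and RELB lists, and a list empty for both genes adds nothing to the distance. DUSP1 was the only one of the 8 genes with peaks in at least 3 of the RELA and RELB lists, and likeness was measured for it alone.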
